A study of Mus musculus with 22 samples.

Results

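The comparison described here is the step from the medium dose to the high dose of Mitsui7 (long, rigid multi-walled carbon nanotubes) in FE1, a cell line of epithelial origin that derives from MutaMouse lung. Its arrays were chosen by their titles: 5 arrays of cells exposed to 25 µg/ml (medium dose) and 6 arrays of cells exposed to 100 µg/ml (high dose), 11 of the 22 arrays in the series. The other 11 arrays were 5 of unexposed cells in medium alone (control, 0 µg/ml) and 6 of cells exposed to 12.5 µg/ml (low dose). All groups were the same cell line, grown with 2% fetal bovine serum and epidermal growth factor and collected 24 h after exposure began, so the groups differ by dose alone as far as the labels say. RNA of the exposed or control cells was labelled with Cy5. A purchased mixture of mouse RNA, labelled with Cy3, served as the reference on all arrays. Levels are given as log2 of Cy5 over Cy3, and a change is a difference of such levels, high dose minus medium dose. No change between these doses passed the adjusted test, so each is an estimate with its standard error (SE). The arrays lay on 5 slides. Slide 1 held replicates 1 and 2 of both doses, slides 3 and 2 held replicates 3 and 4, and slide 4 held medium dose replicate 5 and high dose replicate 6. High dose replicate 5 lay on slide 5 with 1 low dose array and no medium dose array. It enters the fit over all 22 arrays through that low dose array, and has no difference within its own slide.

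Carbon nanotubes that reach the lung meet its epithelial lining first. Lung epithelial cells take up particles, secrete cytokines such as IL-33 that alert immune cells, and exchange signals of the TGF-beta family with the matrix-producing cells beneath them. They also make cholesterol, through a chain of enzymes whose genes are switched on together by the SREBP transcription factors when membrane sterol runs low. A direct comparison of neighbouring doses asks what still differs between cells that have both been exposed.

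Gene by gene, the doses differed little. Of 32613 probes detected in at least 4 arrays of either dose, 0 probes (0%) were called, a call being an adjusted p of at most 0.05 and a change of at least 1.5-fold in limma's moderated test with group and slide as terms. The smallest adjusted p was 0.260. At an unadjusted p under 0.05 there were 1658 detected probes, or 5.08%, of which 945 (2.9% of those detected) were lower and 713 (2.19%) were higher at the high dose. The SD of all changes was 0.144 on the log2 scale, close to the median standard error of a single change, 0.124.

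**Figure D1:**
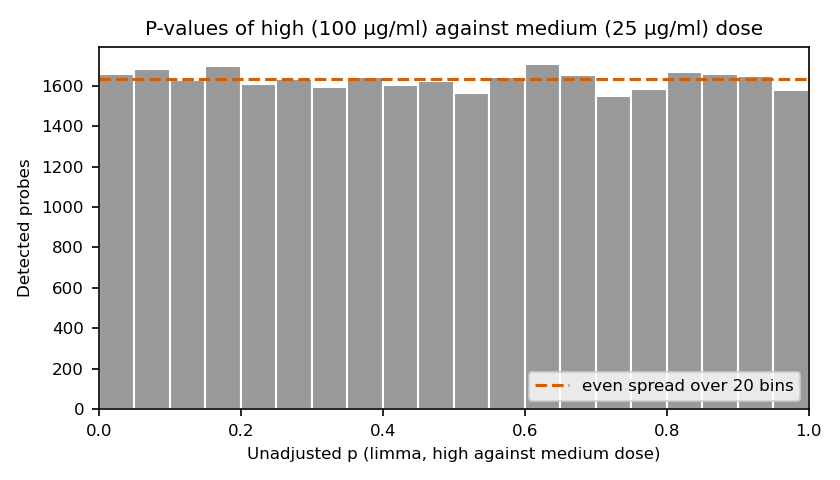
Number of detected probes (vertical axis) in each of 20 bins of the unadjusted p-value (horizontal axis) for high against medium dose; the dashed line marks an even spread. The lowest bin, which held 1658 probes, stands close to the even level, and no bin rises far above it.

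The tail of the ranked changes was uneven. At 1.5-fold or more, 46 detected probes were lower and 7 were higher at the high dose. Both probes past 2-fold, those of Cyp1b1 and Mgp, were lower. Over the 14107 detected genes, each read by its brightest probe, the median change was -0.00 and 50.3% were lower. The ratios were scaled by loess, a correction within each array that depends on intensity. It sets the middle of each array's ratios near 0, so this median cannot show whether the bulk was balanced. With median centring, which shifts each array by 1 value, in its place the median over detected genes was -0.065. The probes at an unadjusted p under 0.05 then divided into 356 lower and 121 higher, and with the authors' value table into 719 lower and 811 higher. The balance of directions thus depended on the scaling.

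The arrays of both doses overlapped in depth. Detected probes numbered 26194 to 35626 per medium dose array and 29562 to 36831 per high dose array, with the lowest of each dose on slide 2. On that slide 5.06% of the spots of the medium dose array and 3.94% of those of the high dose array carried outlier marks and were left out, so some genes have no difference there. Of the 10 epithelial markers listed, 6 were detected, among them the keratins Krt7, Krt8, Krt18 and Krt19 (the last 3 far below the reference), while the defining adhesion genes Cdh1 and Cldn3 were detected on no array of either dose and Epcam on 3 of 5 and 3 of 6. Of 10 mesenchymal markers 9 were detected, including Vim, Col1a1 and Pdgfrb. Detection alone does not bear out the label of an epithelial line. Of all 20018 named genes on the array 14107 were detected, and of 7 macrophage markers on it 6 were. Fewer cells of a kind cannot be told apart from less RNA per cell in these bulk samples.

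The genes with the largest estimates were sought among probes detected at both doses, with a change of at least 1.5-fold and the same direction on all 4 slides that hold both doses. Of 15579 probes with a symbol that could be examined in this way, 19 (0.122%) met this downwards and 2 (0.0128%) upwards. The same direction on all 4 slides without regard to size was common: 8.48% of detected genes were lower and 7.79% higher on all 4.

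Signals of the TGF-beta family stood at the top of the ranking by p. Tgfb3, a TGF-beta ligand, had log2 ratios of 0.56, 0.47, 0.52, 0.58 and 0.59 on medium dose replicates 1 to 5, against -0.18 at the lowest, 0.02 at the median and 0.10 at the highest on the 6 high dose arrays. Every high dose array lay below every medium dose array. The fitted change was -0.55 (SE 0.09), a 1.47-fold lower level, with an unadjusted p of 4.66e-06, the smallest of all 55681 probes tested, and a limma adjusted p of 0.260. Within slides 1 to 4 the differences were -0.54, -0.47, -0.70 and -0.52, so no slide stood apart.

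Tgfb2, a second ligand of the family, read -0.44, -0.46, -0.74, -0.60 and -0.69 on the medium dose arrays and -1.39, -1.19 and -0.79 at the lowest, median and highest of the high dose arrays, again without overlap. Its change was -0.60 (SE 0.11; limma adjusted p 0.382). With slide effects removed, 0.607% of detected probes had all high dose values below all medium dose values, and 0.491% had them all above. Tgfb2 and Tgfb3 were among the former. Smad6, an inhibitor of BMP signalling that BMPs themselves induce, had an estimated change of -0.47 (SE 0.09; limma adjusted p 0.519), and Id1, a direct BMP target, one of -0.46 (SE 0.14). Both were lower on all 4 slides.

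The 21 detected genes of the TGF-beta and BMP list did not have 1 direction. Its median change was -0.05, with 13 lower and 8 higher, 5 of 19 lower on all 4 slides and 2 higher on all 4. The median became 0.033 without high dose replicate 2 and -0.12 without medium dose replicate 2. The receptor Tgfbr1 and the shared mediator Smad4 were the ones higher on all 4, with changes of 0.15 (SE 0.12) and 0.09 (SE 0.15).

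Pdgfrl, which encodes a secreted protein similar to the ligand-binding part of the PDGF receptor, followed Tgfb3 in the ranking by p. Its log2 ratios were -0.98, -1.05, -0.73, -0.32 and -1.17 on the medium dose arrays, and from -1.996 through a median of -1.84 to -1.56 on the high dose arrays. The groups did not overlap. The change of -0.94 (SE 0.16; limma adjusted p 0.278) was a 1.91-fold lower level.

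Il33, the alarmin cytokine, read -0.86, -1.77, -0.96, -1.50 and -2.05 on the medium dose arrays and -2.92, -2.29 and -1.67 at the lowest, median and highest on the high dose arrays. These ranges overlapped: medium dose replicates 2 and 5 lay below high dose replicate 4, the highest of its group. The change was -0.95 (SE 0.30), 1.93-fold lower, and its limma adjusted p was 0.999. Slide 2 gave -0.17 against -0.96, -1.26 and -0.83 on slides 1, 3 and 4, and without slide 2 the change was -1.11.

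Further genes met the rule with smaller changes. Zfp467, a zinc finger transcription factor, had an estimated change of -0.77 (SE 0.16) and Lrrn4, a leucine-rich repeat membrane protein, one of -0.76 (SE 0.19). Nrep, a regulator of TGF-beta production, had one of -0.70 (SE 0.20). The signal of Nrep was well above background, by the scanner's mark, on 5 of 5 medium dose and 3 of 6 high dose arrays. The 3 other detected probes of Zfp467 had estimated changes of -0.20, -0.06 and -0.21, less than the one named. Sprr2a2, a small proline-rich protein of cornified epithelia, had an estimated change of -0.81 (SE 0.24). Its other probe, the brighter one used in the ranking of genes, had one of -0.03. The related gene Sprr2h had a change of 0.61 (SE 0.26) in the other direction. The Sprr2 genes are close copies of each other, so a probe may not read 1 of them alone.

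Smoc2 and Adamts9, which encode a matricellular protein and a matrix protease, had estimated changes of -0.69 (SE 0.26) and -0.62 (SE 0.38). Cdh10, a cadherin, had an estimated change of -0.69 (SE 0.26), Mmd one of -0.66 (SE 0.19) and Plce1, a phospholipase C, one of -0.65 (SE 0.21). The growth factor Igf1 had 4 detected probes, with changes of -0.63, -0.38, -0.37 and -0.26, all of the same sign, the last from its brightest probe. Lrrc3b was the other gene higher on all 4 slides at 1.5-fold or more, with a change of 0.75 (SE 0.22). Its signal was well above background, by the scanner's mark, on only 2 of 5 medium dose arrays and on 6 of 6 high dose arrays. High dose replicate 1 alone read 2.11 against 0.26 to 0.90 on the other 5 high dose arrays, and without it the change was 0.53.

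**Figure D2:**
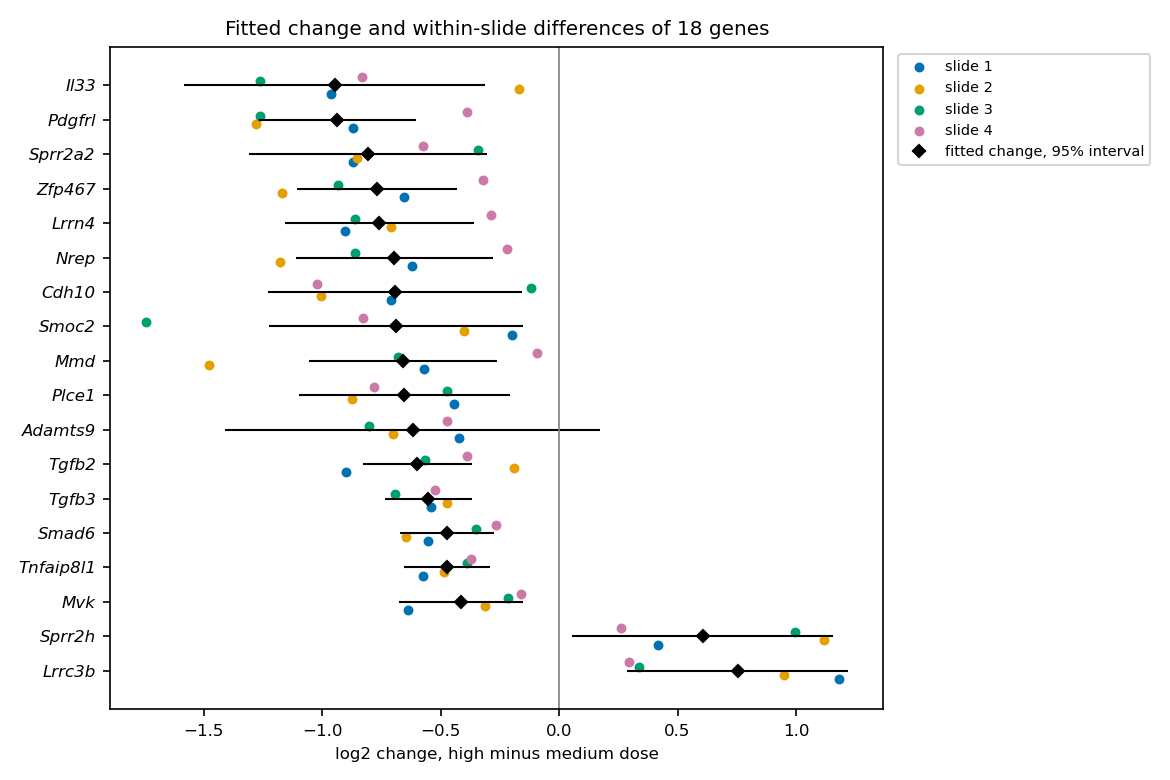
Log2 change from medium to high dose (horizontal axis) of 18 genes, 1 per line. Sprr2a2 is drawn by the less bright of its detected probes. Diamonds are the fitted change over 22 arrays with its 95% interval and coloured points the differences within slides 1 to 4; the points of Tgfb3 lie between -0.70 and -0.47, those of Il33 between -1.26 and -0.17.

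Most of the listed matrix genes had negative estimates. Of 16 detected genes of small proteoglycans and matricellular proteins, which coat collagen fibres and tune cell attachment, 13 were lower and 3 higher, with a median change of -0.41 against -0.00 over all detected genes. Of the 14 with a value on all 4 slides, 7 were lower on all 4 and 0 higher, beside 8.48% and 7.79% of all genes. The group medians on slides 1 to 4 were -0.36, -0.16, -0.49 and -0.21. In the ranking of 14107 genes, 11 of the 16 stood in the lowest 5%.

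Mgp, an inhibitor of calcification that binds BMPs, had the largest change of that group. It read -2.03, -2.78, -1.16, -2.33 and -2.25 on the medium dose arrays and -3.75, -3.08 and -2.20 at the lowest, median and highest on the high dose arrays. The ranges overlapped, and slide 2 ran against the others, with 0.12 against -0.98, -1.98 and -1.38 on slides 1, 3 and 4. The change was -1.09 (SE 0.42), 2.14-fold lower, with a limma adjusted p of 0.999.

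Olfml3, an olfactomedin-like matrix protein, and Ogn, the proteoglycan osteoglycin, had estimated changes of -0.57 (SE 0.33) and -0.56 (SE 0.32). Thbs1, an adhesive glycoprotein that can activate latent TGF-beta, had an estimated change of -0.46 (SE 0.13) with an unadjusted p of 0.00167. At the high dose its level was close to that of the control. Against control, which all 3 doses share, its fitted change was 0.42 at the low, 0.51 at the medium and 0.05 at the high dose. Spp1, the secreted phosphoprotein osteopontin, stood at 1.09, 1.05 and 0.50 against control at the same doses. It had a change of -0.55 (SE 0.22) over this step (-0.29 without medium dose replicate 4). The study's RT-qPCR gave Spp1 no fall from the medium to the high dose.

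Of 16 detected collagen genes 14 were lower, 4 of them on all 4 slides, with a median of -0.24. Col8a1, a short-chain collagen, had an estimated change of -0.41 (SE 0.14), Col6a2 one of -0.27 (SE 0.44; 0.09 without medium dose replicate 2) and Col27a1 one of -0.26 (SE 0.15). The fibrillar collagens Col3a1 and Col1a1 had estimated changes of -0.36 (SE 0.15) and -0.26 (SE 0.16) but were not lower on slide 2, nor was Col1a1 on slide 1. Basement membrane genes had a median of -0.01, with 8 of 14 lower, although Nid2, which links laminin to collagen IV, had an estimated change of -0.57 (SE 0.14) from 2 slides with a value. Elastic fibre and crosslinking genes had a median of -0.07 (14 of 20 lower).

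The mesenchymal markers had estimates like those of these matrix lists and share members with them (Dcn, Col1a1, Col1a2, Col3a1 and Fn1). Of 9 detected, 7 were lower, with a median of -0.26 and slide medians from -0.50 to 0.17. Pdgfrb and Pdgfra, the PDGF receptors, had estimated changes of -0.38 (SE 0.16) and -0.16 (SE 0.10). The part of a change in cell make-up in the matrix values was not tested. Of 6 detected epithelial markers 4 were lower, with a median of -0.09, and of 6 macrophage markers 5 were higher, with a median of 0.07 that became -0.03 with median centring and ran from -0.034 to 0.18 with 1 array left out, the lowest without medium dose replicate 1.

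Of the 33 detected genes of the fibrosis list, which the study chose on these same arrays, 24 were lower, 10 of 32 on all 4 slides, with a median of -0.10. The list is therefore not independent evidence of its direction. Besides Tgfb2 and Tgfb3 it holds the interleukin 1 receptor Il1r1 (-0.41, SE 0.22). The metalloprotease Mmp13, raised against control at every dose by 3.23 to 3.63, had an estimated change of -0.11 (SE 0.18) between the 2 doses, with a different sign on different slides (0.07 without slide 2).

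The sterol synthesis genes had estimates of nearly 1 sign. Of 21 detected genes, whose enzymes lead from acetyl-CoA to cholesterol, 20 were lower at the high dose, with a median change of -0.30. Of 18 with a value on all 4 slides 10 were lower on all 4 and 0 higher, and the group medians on slides 1 to 4 were -0.29, -0.41, -0.21 and -0.18. At an unadjusted p under 0.05, 9 of the 21 were lower, beside 3.03% of all detected genes, and 0 were higher, beside 2.45%. The median member stood at 3.06% of the ranking from the lowest.

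Mvk, mevalonate kinase, read 1.19, 0.85, 0.27, 0.80 and 0.52 on the medium dose arrays and -0.26, 0.31 and 0.51 at the lowest, median and highest on the high dose arrays. Medium dose replicate 3 lay inside the high dose range and the others at or above its upper end. The change was -0.41 (SE 0.13) by the brightest probe and -0.31 by the other. Fdps, which makes farnesyl diphosphate, had an estimated change of -0.38 (SE 0.13), Sqle, the squalene epoxidase, one of -0.37 (SE 0.29), Hmgcs1, the HMG-CoA synthase, one of -0.35 (SE 0.20), and Idi1, the isopentenyl diphosphate isomerase, one of -0.32 (SE 0.15).

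The promoters of 3 of these genes are shown because the pathway is known for shared control at its start sites. Each window of 300 bases lies around the RefSeq start, most of it upstream (GRCm38.p6), all on the plus strand, at chr13:119690101-119690400 for Hmgcs1, chr13:8885356-8885655 for Idi1 and chr5:114444019-114444318 for Mvk. Capitals mark matches on either strand to TCACNCCAC, written after the sterol regulatory element, or to CCAAT, the box bound by NF-Y, which reads ATTGG on the opposite strand. The motifs do not overlap each other.
Hmgcs1: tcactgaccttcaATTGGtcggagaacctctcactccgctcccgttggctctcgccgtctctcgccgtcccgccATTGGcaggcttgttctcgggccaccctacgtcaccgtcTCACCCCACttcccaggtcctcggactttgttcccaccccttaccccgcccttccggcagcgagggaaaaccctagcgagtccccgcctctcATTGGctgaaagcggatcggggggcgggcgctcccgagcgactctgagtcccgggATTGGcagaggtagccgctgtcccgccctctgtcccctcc
Idi1: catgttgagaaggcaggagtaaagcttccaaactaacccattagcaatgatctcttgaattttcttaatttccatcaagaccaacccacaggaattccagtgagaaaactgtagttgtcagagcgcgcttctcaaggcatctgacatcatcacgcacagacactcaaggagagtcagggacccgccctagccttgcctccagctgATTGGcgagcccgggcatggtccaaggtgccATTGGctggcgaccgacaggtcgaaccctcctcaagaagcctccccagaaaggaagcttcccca
Mvk: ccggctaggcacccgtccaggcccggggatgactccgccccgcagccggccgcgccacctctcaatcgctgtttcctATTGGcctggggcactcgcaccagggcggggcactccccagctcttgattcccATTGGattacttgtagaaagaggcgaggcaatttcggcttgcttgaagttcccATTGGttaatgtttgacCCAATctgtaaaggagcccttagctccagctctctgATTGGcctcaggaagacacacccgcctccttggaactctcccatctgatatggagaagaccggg

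Hmgcs1 held 1 match to TCACNCCAC and 4 to CCAAT, Idi1 held 2 and Mvk 5 to CCAAT and none to the other. Of the 21 listed sterol synthesis genes 16 had a promoter in the RefSeq table. A CCAAT match was found in 15 of these 16, beside 41.1% of all 27025 genes with a promoter in the table (37.4% of 32851 promoters), and TCACNCCAC in 1, beside 1.44% of all genes (1.24% of promoters). A match is a string of letters in a window and no evidence of binding.

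Around the pathway the picture was mixed. Stard4, a carrier that moves sterol between membranes, had an estimated change of -0.47 (SE 0.12), the same as on its other probe. Scap, the escort of SREBP, had one of -0.20 (SE 0.09). The sterol regulation and transport list as a whole had a median of -0.05 (10 of 15 lower). Fatty acid synthesis had a median of -0.07 (9 of 14 lower), led by the desaturase Scd1 at -0.39 (SE 0.13) and the acyl-CoA synthetase Acsl3 at -0.37 (SE 0.18). The cholesterol list that the study chose on these arrays, which shares most of its members with the sterol synthesis list, had a median of -0.27 (19 of 20 lower); its member Acat3 had an estimated change of -0.45 (SE 0.23).

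**Figure D3:**
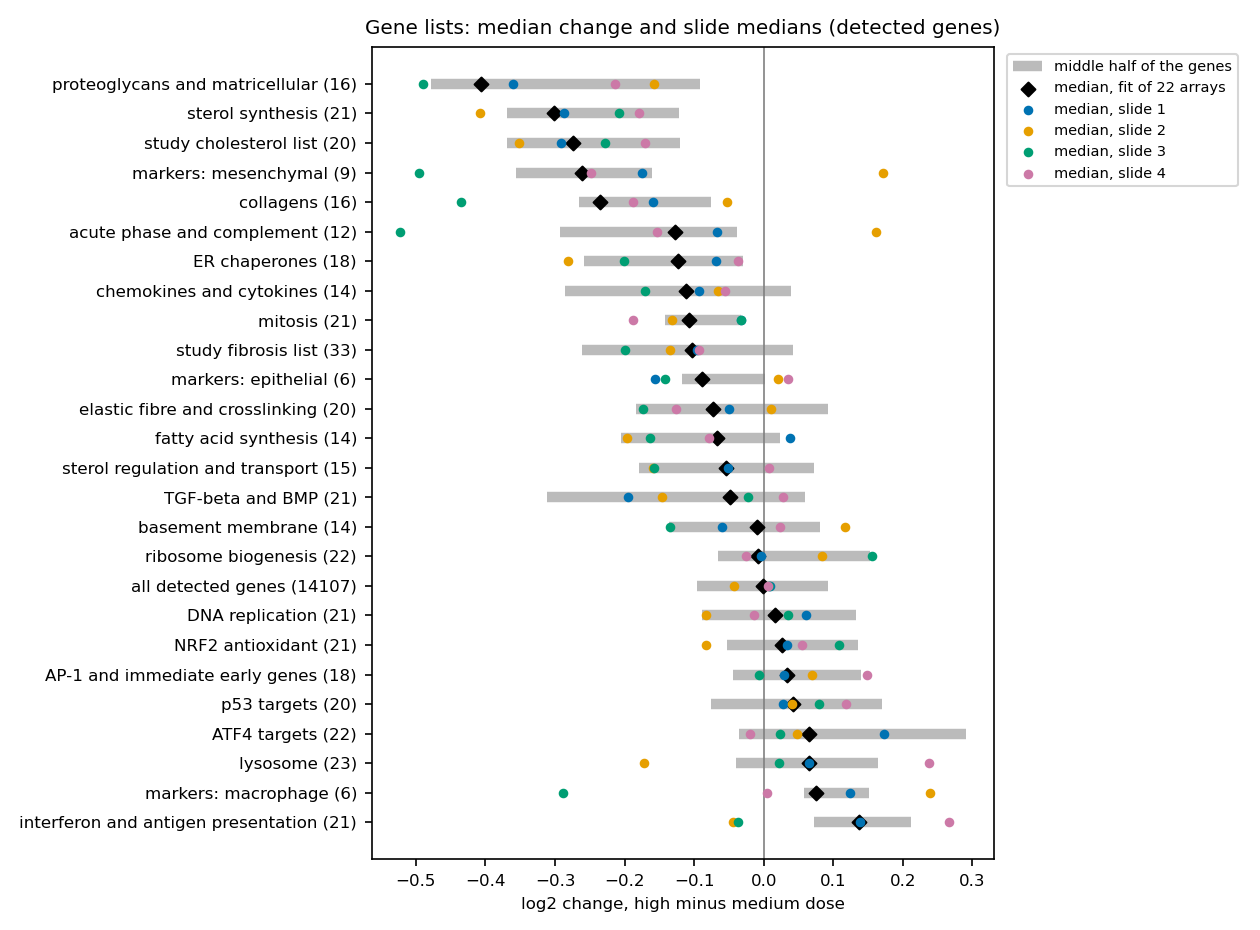
Median log2 change from medium to high dose (horizontal axis) of the gene lists, with the number of detected genes in brackets. Diamonds are medians of the fitted change, grey bars the range between the quartiles of the genes and coloured points the medians on slides 1 to 4; sterol synthesis lies at -0.30 with all 4 slides below 0, and all detected genes lie at -0.00.

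The ATF4, p53 and AP-1 lists stood above control at the medium dose, with medians of 0.67, 0.44 and 0.80. The NRF2, DNA replication and lysosome lists stood at 0.03, -0.05 and -0.10. Over this step all of them had small medians, which turned negative with median centring in place of loess. The median over all detected genes also fell with that scaling, from -0.00 to -0.065. The ATF4 targets, genes of amino acid supply and of the integrated stress response, had medians of 0.67 and 0.74 against control at the medium and high dose and 0.06 between them (-0.07 with median centring), with 15 of 22 higher. Ddit3, which encodes the transcription factor CHOP, had an estimated change of 0.34 (SE 0.12) and was higher on all 4 slides; Phgdh and Trib3 had estimated changes of 0.26 (SE 0.18) and 0.11 (SE 0.22), the last -0.05 with median centring. In the ranking, 7 of the 22 stood in the highest 5%.

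The p53 targets had a median of 0.04 (-0.05 with median centring), with 14 of 20 higher and 6 of 19 higher on all 4 slides, beside 7.79% of all genes, and 0 lower on all 4. Pmaip1, the pro-apoptotic NOXA, read -1.40, -1.69, -1.15, -1.45 and -1.35 on the medium dose arrays and -1.30, -1.08 and -0.85 at the lowest, median and highest on the high dose arrays. Medium dose replicate 3 alone lay inside the high dose range. The change was 0.35 (SE 0.14; limma adjusted p 0.999), 1.27-fold higher. Mdm2, the feedback inhibitor of p53, and Trp53inp1 had estimated changes of 0.26 (SE 0.10) and 0.27 (SE 0.17).

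Ribosome biogenesis and the AP-1 and immediate early genes had medians of 0.66 and 0.91 against control at the high dose, yet differed between the doses by medians of -0.01 and 0.03 (-0.11 and -0.05 with median centring). Pes1, Nop56 and Mybbp1a, nucleolar proteins, had estimated changes of 0.36 (SE 0.17), 0.26 (SE 0.16) and 0.25 (SE 0.12), and Nr4a1, an immediate early nuclear receptor, one of 0.26 (SE 0.09). The NRF2 antioxidant genes had a median of 0.03 (-0.08 with median centring). Gclc, the catalytic subunit of glutathione synthesis, had an estimated change of 0.34 (SE 0.13), Txnrd1 one of 0.19 (SE 0.11) and Hmox1 one of 0.14 (SE 0.19; -0.01 with median centring and -0.02 without medium dose replicate 1). Ankrd1, a target of YAP, had an estimated change of 0.42 (SE 0.15) and Igfbp4, which binds IGFs, one of 0.33 (SE 0.22).

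Chaperones of the endoplasmic reticulum were lower in 15 of 18 genes, with a median of -0.12. Manf had an estimated change of -0.51 (SE 0.29), Pdia6, a disulfide isomerase, one of -0.37 (SE 0.11) and Calr, calreticulin, one of -0.36 (SE 0.24). Mitosis genes were lower in 18 of 21 with a median of -0.11, led by the kinesin Kif20a at -0.43 (SE 0.16), with Bub1b at -0.27 (SE 0.19) and Nusap1 at -0.17 (SE 0.13). DNA replication genes had a median of 0.02 (-0.11 with median centring), with 9 of 21 lower. Lysosome genes had a median of 0.07 (-0.08 with median centring), with 14 of 23 higher.

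Of 21 detected interferon and antigen presentation genes 18 were higher, with the largest positive median of the lists described, 0.14. The slides disagreed, with medians of 0.14, -0.04, -0.04 and 0.27 on slides 1 to 4, and only Gbp2, an interferon-induced GTPase, was higher on all 4, with a change of 0.33 (SE 0.11). Against control the list stood at -0.05 at the medium and 0.01 at the high dose. Cytokine genes had a median of -0.11 (10 of 14 lower), with Il33 the largest change, then Ccl2, a monocyte chemokine, at -0.54 (SE 0.25), and Tslp, an epithelial alarmin, at -0.30 (SE 0.12). Acute phase and complement genes had a median of -0.13 (10 of 12 lower), but slide medians of -0.07, 0.16, -0.52 and -0.15 and a median of 0.0007 without medium dose replicate 3. Among them was Cp, ceruloplasmin, at -0.38 (SE 0.20).

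Further genes outside the lists described above stood at the low end of the ranking. Cyp1b1, a cytochrome P450 induced through the aryl hydrocarbon receptor, was first of 14107 genes. It read -0.02, 0.49, 0.47 and 0.52 on medium dose replicates 1, 2, 3 and 5, and -1.23, -0.47 and -0.25 at the lowest, median and highest of 5 high dose arrays, without overlap. Slide 2 had no value. The change was -1.16 (SE 0.26), 2.23-fold lower, with a limma adjusted p of 0.999. The study's aryl hydrocarbon receptor list, chosen on these same arrays, holds Cyp1b1. Of its 32 detected genes 21 were lower and 11 higher, with a median of -0.10. Of 7 detected targets of the receptor 5 were lower, 0 of them on all 4 slides. Tnfaip8l1 had an estimated change of -0.47 (SE 0.09; limma adjusted p 0.382), and the alveolar type I markers Hopx and Aqp5 had changes of -0.49 (SE 0.16) and -0.28 (SE 0.14). The reference genes Actb, Gapdh and Hprt had estimated changes of 0.11 (SE 0.33), 0.11 (SE 0.15) and 0.27 (SE 0.16), and with median centring Actb and Gapdh both read -0.10.

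The estimates of some of these genes leaned on 1 array. Without medium dose replicate 4 the change was -0.12 for Bub1b, -0.30 for Manf, -0.26 for Il1r1, -0.40 for Adamts9 and -0.26 for Acat3. Without medium dose replicate 2 it was -0.20 for Calr and 0.15 for Trp53inp1. It was 0.16 for Igfbp4 without medium dose replicate 5, -0.42 for Smoc2 without high dose replicate 3 and -0.20 for Idi1 without high dose replicate 2. Hmgcs1 stood at -0.54 without medium dose replicate 5, and Phgdh at 0.16 and Trib3 at 0.26 without medium dose replicate 1. The collagen median was -0.15 without high dose replicate 6. Besides the TGF-beta and BMP, acute phase and macrophage lists, the small medians of the AP-1, NRF2, DNA replication, ribosome biogenesis, basement membrane and sterol regulation lists also turned sign when 1 array was left out.

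**Figure D4:**
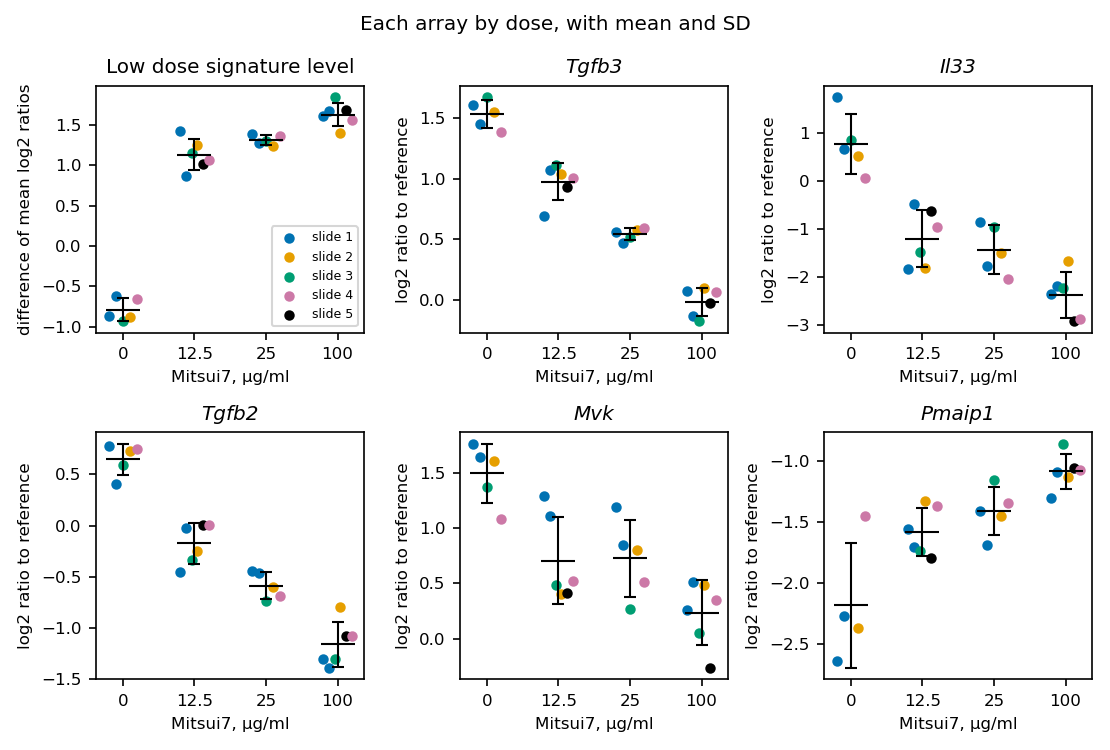
Log2 ratio to the reference (vertical axes) on each of the 22 arrays by dose of Mitsui7 (horizontal axes) for 5 genes, and the level of the low dose signature described in the text; points are arrays coloured by slide, bars mean and SD. For Tgfb3 all 6 high dose arrays lie below all 5 medium dose arrays, and the same holds for Tgfb2.

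The levels along the 4 doses show where this step falls. Tgfb3 had a level of 1.53 ± 0.12 (SD, n = 5) in control cells and 0.98 ± 0.15 (SD, n = 6) in low dose cells. Its level was 0.54 ± 0.05 (SD, n = 5) in medium dose cells and -0.01 ± 0.12 (SD, n = 6) in high dose cells. On these arrays each dose lay below the one before by more than the spread of its arrays. In the study's RT-qPCR the decrease of Tgfb3 against control was nearly the same at the medium and high dose. That of Tgfb2 was larger at the high dose. Il33 had levels of 0.77 ± 0.62 (SD, n = 5) in control cells and of -1.20 ± 0.60 (SD, n = 6), -1.43 ± 0.51 (SD, n = 5) and -2.38 ± 0.47 (SD, n = 6) at the rising doses, and its low and medium doses did not differ beyond their spread.

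The medians of the lists can be read in the same manner. Against the shared control arrays sterol synthesis stood at medians of -0.51, -0.77 and -0.97 at the 3 doses, proteoglycans and matricellular genes at -0.43, -0.65 and -0.91, collagens at -0.52, -0.63 and -0.81, and ATF4 targets at 0.64, 0.67 and 0.74. These values share their controls and are set side by side only. From the medium to the high dose the step in each of the first 3 medians was larger than that in the ATF4 median.

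A further reading avoids shared arrays. Probes that differed between the low dose and control were picked on those 11 arrays alone (adjusted p of at most 0.05, 1.5-fold, detected), which gave 375 lower and 297 higher probes, detected by the low dose and control arrays. Their change from medium to high dose was then read from a fit of the 11 medium and high dose arrays alone. No array enters both steps, although the slides are the same and slide is a term in both. High dose replicate 5 has no medium dose partner on its slide and drops out of this second fit.

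Probes lower at the low dose were mostly lower still at the high than at the medium dose. Of the 375, 328 (87.5%) were, with a median change of -0.20, beside 51% of all detected probes. Of the 297 higher probes 219 (73.7%) were higher still, with a median of 0.10, beside 49%. Both directions together gave 81.4%. On slides 1 to 4 the share was 74.9%, 59.3%, 85.7% and 66.5%, above 50% on each but unequal. On slide 2 the lowered probes gave 66.6% and the raised probes 50.3% (145 of 288), with a median change of 0.0031 for the latter.

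The direction was also read on each slide. Of the 347 lower probes with a value on all 4 slides 134 (38.6%) were lower on all 4 and 5 higher on all 4, beside 7.72% and 6.96% of all detected probes. Of the 281 higher probes 56 (19.9%) were higher on all 4 and 7 lower on all 4. Across the 32613 detected probes, which are not independent replicates, the change at the low dose and the change over this step had a Pearson r of 0.28.

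Expressed as 1 level per array (the mean log2 ratio of 267 raised probes minus that of 330 lowered probes, those with a value on all arrays), the signature stood at 1.39, 1.27, 1.31, 1.24 and 1.37 on medium dose replicates 1 to 5. The high dose arrays read 1.41 at the lowest, 1.64 at the median and 1.85 at the highest. All 6 high dose arrays lay above all 5 medium dose arrays, the nearest being high dose replicate 4, on slide 2. The 6 low dose arrays, which took part in the choice, read 0.87 to 1.42 and overlapped the medium dose.

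**Figure D5:**
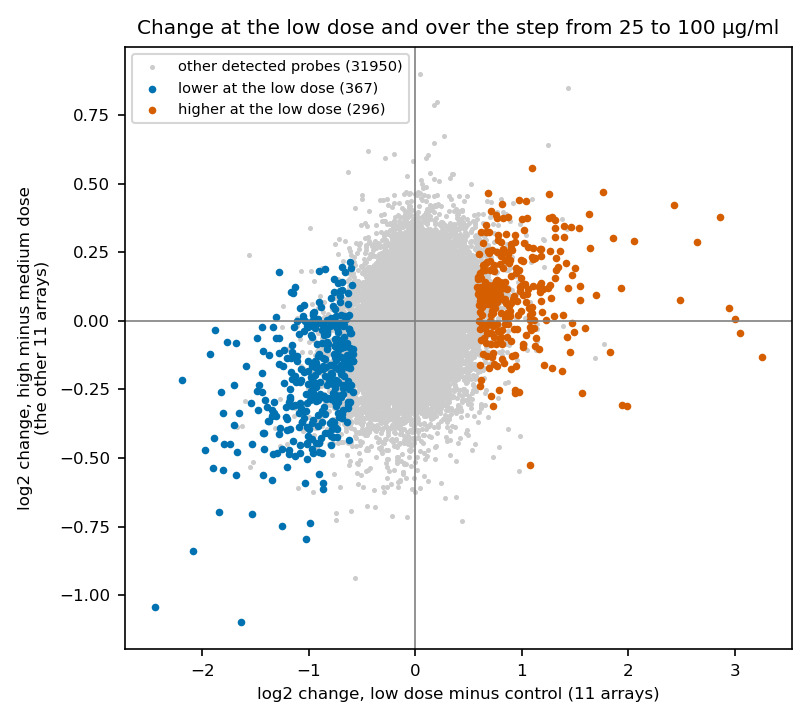
Log2 change from medium to high dose (vertical axis, 11 arrays) against log2 change from control to low dose (horizontal axis, the other 11 arrays) for 32613 detected probes. Of the signature, the 367 lower (blue) and 296 higher (orange) probes also detected at the medium or high dose are drawn; most blue points lie below 0 and most orange points above 0.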

How the data were processed

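RNA of FE1 cells (Cy5) and Universal Mouse Reference RNA, a pool from 11 mouse cell lines (Cy3), was hybridised to 2-colour Agilent arrays without dye swap. The deposited scanner files give a median intensity and a background intensity per spot and channel, and a log10 ratio of red over green that the scanner software (10.7.3.1 per the file headers) had background-subtracted and dye-normalized. The authors also deposited a table of log2 values. Its columns followed the loess-scaled log2 ratios made here from the intensities of the same arrays (lowest correlation 0.840, median 0.985).

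From the intensities, log2 ratios were made without background subtraction, as in the study's methods, with loess within each array in limma 3.58.1 (R 4.3.3). Spots with outlier marks were left out and the median of a probe's spots was taken. A probe counted as detected where its Cy5 signal lay above a limit set by 308 negative control spots (mean plus 3 SDs, each after 5% trimming), in at least 4 arrays of either dose. Group and slide were terms in 1 fit of 22 arrays, moderated by eBayes, with Benjamini-Hochberg adjustment over 55681 probes. Of these, 26413 could be given a gene symbol through their accession. In lists and in the ranking a gene was read by its brightest probe, where that probe was detected. Genes named for their large change or small p were given by the probe with that change or p. The step was tested on simulated data.

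Named genes were those with the largest changes in 1 direction on all 4 slides, those with the smallest p, and list members with 1 direction on all 4 slides; the remaining ones were chosen after their values were seen. The members and lists were chosen with earlier results of these data known. Per the labels, 3 individual exposures were made for each dose on an experiment day. The labels do not tie an array to a day, so day could not be a term. The study's methods describe 3 separate experiments for the cells, fewer than the arrays of a dose. The SEs, SDs and limma p-values treat each array as independent, which the arrays may not all be.

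Replicates with the same number deviated together (correlations from 0.339 to 0.649 over the 5 pairs), and most share a slide. With the slide effect removed the correlations ran from -0.320 to 0.467. Alternatives covered background correction, scaling, detection, the slide term, the replicate number as a block and leaving out arrays or slides. Columns of the authors' own comparisons were not used. Some genes are not reported here. The number of arrays limits the precision.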

Additional observations from a re-analysis of the deposited data

Results flagged for a closer look

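Of 164 groups of 4 to 6 arrays examined for the genes described, 7 (4.27%) held an array far from the rest of its group, and chance alone gives about 1 in 20. Lrrc3b read 2.11 in high dose replicate 1 and 0.26 to 0.90 in the other high dose arrays. Sprr2h read 2.82 in high dose replicate 3 and 1.79 to 2.08 in the others. Nr4a1 read -1.53 in high dose replicate 3 and -1.42 to -1.37 in the others. Plce1 read 2.91 in medium dose replicate 5 and 3.47 to 3.60 in the others. Cyp1b1 read -0.015 in medium dose replicate 1 and 0.47 to 0.52 in the other medium dose arrays with a value. Hmox1 read -1.07 in medium dose replicate 1 and -0.36 to -0.17 in the others. The brightest Igf1 probe read 3.41 in medium dose replicate 3 and 3.63 to 3.68 in the others.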

How the results depend on the processing

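No probe was called under any of 32 alternatives. Tgfb3 reached a limma adjusted p of 0.0409 with no slide term and 0.0227 with slide as a random block, at under 1.5-fold. The count at an unadjusted p under 0.05 (1658) became 477 with median centring of each array, 995 with no slide term and 2533 where a replicate block replaced the slide term; leaving out 1 array at a time gave 1162 to 2300. With median centring the list medians became -0.41 for the study's cholesterol list, -0.18 for elastic fibre and for the study's fibrosis list, -0.048 for p53 targets, -0.074 for ATF4 targets, -0.077 for NRF2 genes, -0.20 for mitosis, -0.11 for DNA replication and for ribosome biogenesis and -0.047 for AP-1 genes, and Trib3 became -0.0495, Hmox1 -0.014, Actb -0.10 and Gapdh -0.10. Over all detected genes the median became -0.065 with median centring, beside -0.00 with loess. The scanner's log ratio gave -0.19 for epithelial markers. The replicate block gave -0.054 for chemokines and cytokines and 0.0058 for Mmp13, and it moved no other result named here past its slide spread or sign. With 1 array left out, the AP-1 median ran from -0.016 to 0.11, Hmox1 from -0.018 to 0.24, Col6a2 from -0.55 to 0.089, Mmp13 from -0.23 to 0.028 and Actb from -0.067 to 0.32. Actb was -0.0295 without slide 1, Mmp13 0.074 without slide 2, and Col6a2 0.081 without low dose replicate 1 and medium dose replicate 2 together. The cause was not tested. Of 725 list values 712 stayed within the slide spread and of 2265 gene values 2253 kept their sign. The share of signature probes that went further ran from 73.8% to 88.5%.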
